A study of Mus musculus with 4 samples.

Results

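The genes described here are 8 chemokine ligands, taken as the rows whose Ensembl ID carries the symbol Ccl1, Ccl3, Ccl4, Ccl5, Xcl1, Ccl17, Ccl22 or Ccl24 in the mouse GENCODE annotation, among 38282 gene IDs in all. The set was divided by the cells each ligand is best known from. Ccl1, Ccl3, Ccl4, Ccl5 and Xcl1 formed the T cell type group of 5, and Ccl17, Ccl22 and Ccl24 the myeloid type group of 3. RNA came from CD4+ T cells of C57BL/6 mouse spleen, isolated as naive cells and cultured under the Th0 condition, the usual name for activation without lineage-steering cytokines. One group of 2 libraries (Th0 2 and Th0 3) had no dopamine, the other (Th0+Dopa 2 and Th0+Dopa 3) was treated with dopamine, the neurotransmitter, and all were harvested on day 4. The labels do not state whether the libraries of a group were separate mice or cultures, so each p-value reflects the spread of these libraries alone, which may be technical. By its title, the study concerns dopaminergic nerves and Th2 inflammation of the lung after birth, and the cultures address what dopamine does to activated T cells. The sources used here do not state the dose of dopamine or the age of the mice.

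Chemokines are small secreted proteins that bind receptors coupled to G proteins and direct the movement of leukocytes. They are classed by their N-terminal cysteines, which are adjacent in the CC family, while Xcl1 belongs to a small family that lacks part of this pattern. Activated T cells secrete Ccl3, Ccl4 and Ccl5, which recruit monocytes and other T cells. Ccl17 and Ccl22 attract Ccr4-bearing cells such as Th2 and regulatory T cells and are known chiefly from dendritic cells and macrophages, and Ccl24 attracts eosinophils through Ccr3. The libraries were made from whole cultures, so they do not show which cells in a culture held a transcript, and fewer cells of a type and less RNA per cell cannot be told apart.

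The genes of the members lie in few places. In GRCm38 (the mm10 build), Ccl3 (ENSMUSG00000000982, chromosome 11, 83647844 to 83649355, minus strand) and Ccl4 (ENSMUSG00000018930, chromosome 11, 83662584 to 83664683, plus strand) start 13.2 kb apart and are read away from each other. Ccl5 (ENSMUSG00000035042, chromosome 11, 83525778 to 83530518) lies on the same stretch, and Ccl1 (ENSMUSG00000020702) elsewhere on chromosome 11. Ccl22 (ENSMUSG00000031779, chromosome 8, 94745590 to 94751699) and Ccl17 (ENSMUSG00000031780, chromosome 8, 94810453 to 94812036) start 64.9 kb apart on the plus strand. Ccl24 (ENSMUSG00000004814, chromosome 5, 135569937 to 135573049) and Xcl1 (ENSMUSG00000026573, chromosome 1, 164931644 to 164935527) stand alone among the members. Coding transcripts of 7 members have 3 exons; Ccl24 has one form with 3 and one with 4. Xcl1 overlaps Gm20743, a noncoding gene of the opposite strand, and since the sources used here do not state whether counting used strand, its reads may not be separable from those of Gm20743.

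RefSeq promoters on GRCm38.p6 were at hand for 5 of the 8 members. The sequences upstream of Ccl17 and Ccl22, which fell together, and of Ccl3, the divergent neighbour of Ccl4, are shown so that the regulatory DNA can be read beside the values. Each runs 5′ to 3′ toward the RefSeq start. Bases inside an exon of the GENCODE model were left out, which removed 94 bases for Ccl22. The Ccl3 stretch ends at the RefSeq start, upstream of the start of the GENCODE gene. Capitals mark a match to one of the motifs searched.
Ccl17, chr8:94810203-94810452, plus strand: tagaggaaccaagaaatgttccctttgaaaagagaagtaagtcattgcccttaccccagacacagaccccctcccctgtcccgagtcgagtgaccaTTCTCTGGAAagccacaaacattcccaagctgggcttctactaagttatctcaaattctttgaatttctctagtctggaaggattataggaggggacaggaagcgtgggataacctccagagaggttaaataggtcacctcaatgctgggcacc
Ccl22, chr8:94745434-94745589, plus strand: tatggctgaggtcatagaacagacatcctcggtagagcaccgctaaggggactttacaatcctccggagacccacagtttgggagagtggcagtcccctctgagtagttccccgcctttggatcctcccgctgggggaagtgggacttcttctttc
Ccl3, chr11:83649379-83649628, minus strand: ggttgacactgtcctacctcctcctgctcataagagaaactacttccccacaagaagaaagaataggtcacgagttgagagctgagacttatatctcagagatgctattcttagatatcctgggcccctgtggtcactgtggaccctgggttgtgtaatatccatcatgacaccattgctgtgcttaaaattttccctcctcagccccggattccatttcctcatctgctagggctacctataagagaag
The motifs, read on both strands in the 250 bases before each start, were NF-kB (GGG and TTTCC parted by any 2 bases), STAT6 (TTC and GAA parted by any 4 bases), AP-1 (TGANTCA), the cAMP response element (TGACGTCA), NFAT (TGGAAAA) and the TATA box (TATAAA). Ccl17 held 1 match, the STAT6 letters beginning 154 bases before the start, and Ccl1 held 1 match to the NFAT letters 117 bases before its start. The STAT6 letters occurred in 5.85% of 32851 RefSeq promoter windows of this length and the NFAT letters in 5.93%. Ccl3, Ccl22 and Xcl1 held none of the 6 motifs in this window. Elsewhere the shares were 1.41% for NF-kB, 6.75% for AP-1, 1.55% for the cAMP response element and 12.4% for the TATA box. A match is a description of the letters and not a binding site.

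The libraries differed in composition between the groups. Summed FPKM was 687066 and 715110 in Th0 2 and Th0 3 and 880583 and 794873 in Th0+Dopa 2 and Th0+Dopa 3, where FPKM counts fragments relative to transcript length and to the library's total of fragments. Over 11423 tested genes, limma called 717 higher and 501 lower at a Benjamini-Hochberg adjusted p under 0.05. Higher calls made up 58.9% of calls as deposited, 26.1% after scaling every library to the same sum (the common sum) and 33.5% when small RNA genes were removed before that scaling. Across all tested genes the median difference was 0.03, -0.20 and -0.11 on the log2 scale in these 3 settings. The calls in the members stood under each of these scalings.

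All 3 myeloid type ligands fell with dopamine, and 1 of the 4 tested T cell type ligands, Ccl4, rose. Calls in either direction made up 4 of the 7 tested members and 10.7% of all tested genes, of which 6.28% rose and 4.39% fell. The median log2(FPKM + 1) difference was -2.22 over the 3 myeloid type ligands and 0.58 over the 4 tested T cell type ligands, against 0.03 over all tested genes. None of the T cell type ligands was called lower by limma (0 at an unadjusted p under 0.05). All 7 tested members were above 1 FPKM in every library, and Xcl1 lay under the filter of a mean of 1 FPKM. The members were chosen with earlier results of these data known, so these counts describe them and do not stand as independent evidence for a direction.

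**Figure D1:**
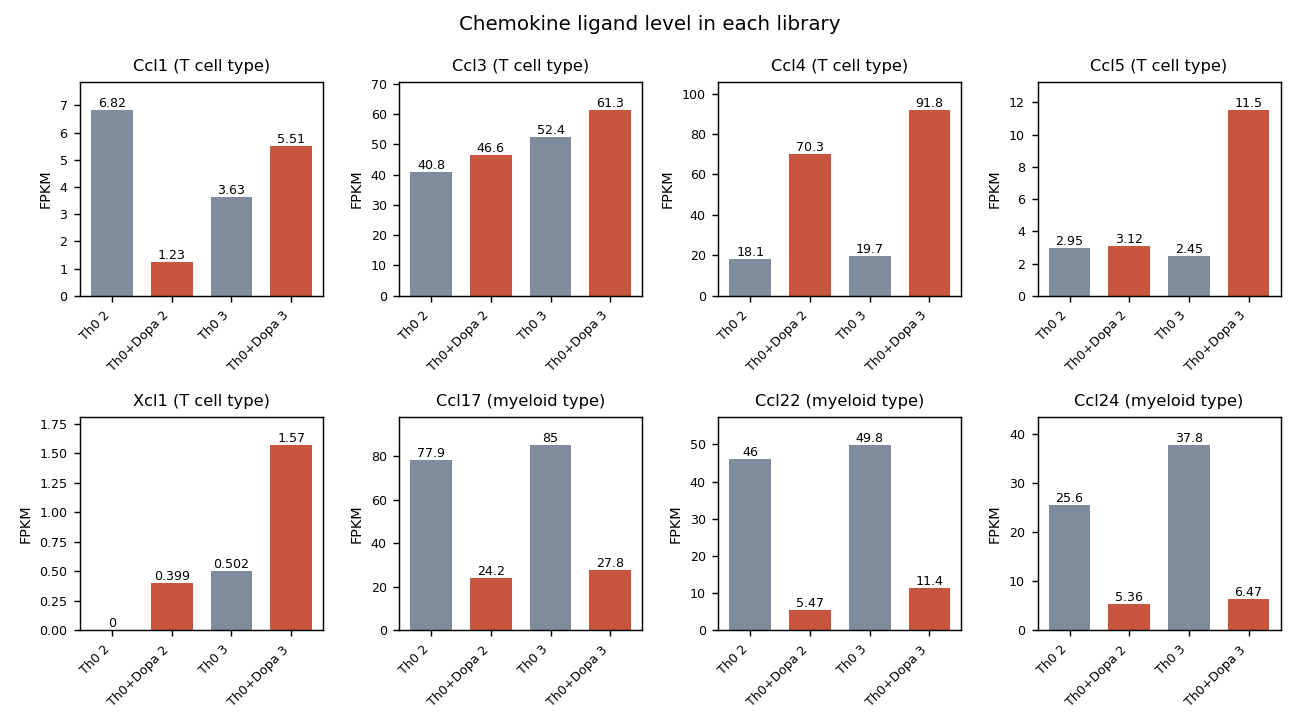
FPKM of each of the 8 chemokine ligands (vertical axes, from 0, separately scaled) in the 4 libraries, grey for Th0 and red for Th0+Dopa, with the value above each bar. Ccl17, Ccl22 and Ccl24 were lower in both dopamine libraries than in either Th0 library, Ccl4 was higher in both, and Ccl1 moved in opposite directions in the 2 pairs.

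Ccl4, an attractant of monocytes and T cells, had the largest difference of the T cell type ligands. It stood at 18.1 FPKM in Th0 2 and 19.7 in Th0 3, and at 70.3 in Th0+Dopa 2 and 91.8 in Th0+Dopa 3. The groups did not overlap, which held for 31.4% of all tested genes in this direction and for 25.6% in the other, and the libraries of a group lay close together compared with the distance between groups. Within the pairs Ccl4 was 3.88-fold and 4.67-fold higher with dopamine, and the difference on the log2(FPKM + 1) scale was 2.03 ± 0.13 (SE; limma adjusted p = 0.00116, n = 2 per group). By an estimate of depth from genes with few reads, these values rest on about 64 and 53 fragments in Th0 and about 241 and 317 with dopamine. Leaving out Th0 2 gave a difference of 1.96 (limma adjusted p = 0.123), Th0+Dopa 2 gave 2.19 (0.0952), Th0 3 gave 2.05 (0.161) and Th0+Dopa 3 gave 1.83 (0.0883), so the call was lost in each of these fits of 3 libraries.

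Ccl3, a ligand of Ccr1, was more abundant than Ccl4 in Th0. It stood at 40.8 and 46.6 FPKM in Th0 2 and Th0+Dopa 2, and at 52.4 and 61.3 in Th0 3 and Th0+Dopa 3. Each pair was slightly higher with dopamine, but the groups overlapped, since Th0 3 exceeded Th0+Dopa 2. The difference was 0.21 ± 0.11 (limma adjusted p = 0.283) and did not pass. Its sign was not stable, being -0.045 under the common sum and -0.0047 without Th0+Dopa 3. FPKM is per length, so both genes can be compared within a library. The ratio of Ccl4 to Ccl3 was 0.444 in Th0 2 and 0.375 in Th0 3, and 1.508 and 1.497 in Th0+Dopa 2 and Th0+Dopa 3. Ccl3 was thus the higher of these neighbours in both Th0 libraries and Ccl4 in both dopamine libraries, a ratio that no scaling of a library can alter. An exact permutation test of the ratio gave a two-sided p of 0.333, the smallest that 2 libraries against 2 allow.

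Ccl5, which binds Ccr1 and Ccr3, was a minor transcript. It was 2.95 and 2.45 FPKM in Th0 2 and Th0 3, and 3.12 and 11.5 in Th0+Dopa 2 and Th0+Dopa 3. Only Th0+Dopa 3 stood apart from the others, and the groups were separate by a narrow margin. The difference of 0.96 ± 0.43 did not pass (limma adjusted p = 0.217), and it was 0.14 without Th0+Dopa 3 (adjusted p = 0.695) and 1.73 without Th0+Dopa 2 (adjusted p = 0.193). The estimate of depth gives about 8 and 5 fragments in Th0 and about 8 and 30 with dopamine.

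Ccl1, the ligand of Ccr8, gave no common direction. It went from 6.82 FPKM in Th0 2 to 1.23 in Th0+Dopa 2, and from 3.63 in Th0 3 to 5.51 in Th0+Dopa 3. The first pair was lower with dopamine and the second higher, on log2 differences of -1.81 and 0.49. The mean of -0.66 ± 0.53 did not pass (limma adjusted p = 0.471), and without Th0+Dopa 2 it was 0.08. These levels rest on about 22 and 4 fragments in the first pair and 9 and 17 in the second. Xcl1, which attracts dendritic cells bearing Xcr1, was listed at 0 in Th0 2 and stood at 0.502 FPKM in Th0 3, with 0.399 and 1.57 in the libraries Th0+Dopa 2 and Th0+Dopa 3. At about 1 to 4 fragments where it was seen, it was not tested with the filter, and without the filter its difference of 0.63 ± 0.23 did not pass (limma adjusted p = 0.245).

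Ccl17 was the most abundant of the 8 ligands in both Th0 libraries. It stood at 77.9 and 85.0 FPKM in Th0 2 and Th0 3, and at 24.2 and 27.8 in Th0+Dopa 2 and Th0+Dopa 3. The groups did not overlap and the pairs gave nearly the same fall, 3.22-fold and 3.06-fold. The difference was -1.61 ± 0.11 (limma adjusted p = 0.00175). With libraries left out in the order given for Ccl4, it was -1.69, -1.55, -1.59 and -1.73, with adjusted p values of 0.109, 0.120, 0.161 and 0.0882.

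Ccl22, which shares the receptor Ccr4 with Ccl17 and lies beside it, fell further but less evenly. It was 46.0 and 49.8 FPKM in Th0 2 and Th0 3, and 5.47 and 11.4 in Th0+Dopa 2 and Th0+Dopa 3. Both dopamine libraries were far below both Th0 libraries, 8.41-fold in the first pair and 4.36-fold in the second. The difference was -2.45 ± 0.22 (limma adjusted p = 0.00363), the 54th lowest of the 11423 tested genes. In the same order of libraries left out, it was -2.52, -2.01, -2.43 and -2.93, with adjusted p values of 0.191, 0.105, 0.285 and 0.0837. The ratio of Ccl17 to Ccl22 was 1.69 and 1.71 in the Th0 libraries, and 4.42 and 2.43 in Th0+Dopa 2 and Th0+Dopa 3.

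Ccl24, the eosinophil attractant, followed the same direction. It was 25.6 FPKM in Th0 2 and 37.8 in Th0 3, and 5.36 in Th0+Dopa 2 and 6.47 in Th0+Dopa 3. The groups did not overlap, and the falls within pairs were 4.77-fold and 5.84-fold. The difference was -2.22 ± 0.16 (limma adjusted p = 0.00183). Leaving out the libraries in the same order gave -2.51, -2.14, -1.98 and -2.35, with adjusted p values of 0.0915, 0.204, 0.179 and 0.138.

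In FPKM, the order of the 8 ligands differed between the groups. Ccl17 came first in both Th0 libraries, followed by Ccl22 and Ccl3, whose order differed between Th0 2 and Th0 3, then by Ccl24 and Ccl4. With dopamine the order in both libraries began with Ccl4, Ccl3 and Ccl17. Ccl1, Ccl5 and Xcl1 came last in Th0. Of neighbours in the Th0 order, Ccl22 and Ccl3 alone overlapped between libraries. With dopamine, Ccl22, Ccl5 and Ccl24 overlapped one another, and Ccl1 overlapped each of these and Xcl1. The T cell type ligands made up 31.5% and 31.3% of the summed FPKM of the 8 genes in Th0 2 and Th0 3, and 77.7% and 79.0% in Th0+Dopa 2 and Th0+Dopa 3. Their own sum was 68.7 and 78.7 FPKM in Th0 against 122 and 172 with dopamine, most of it Ccl3 and Ccl4. The myeloid type sum was 150 and 173 FPKM against 35.0 and 45.7. These shares are descriptions of a set chosen with results known and carry no test.

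**Figure D2:**
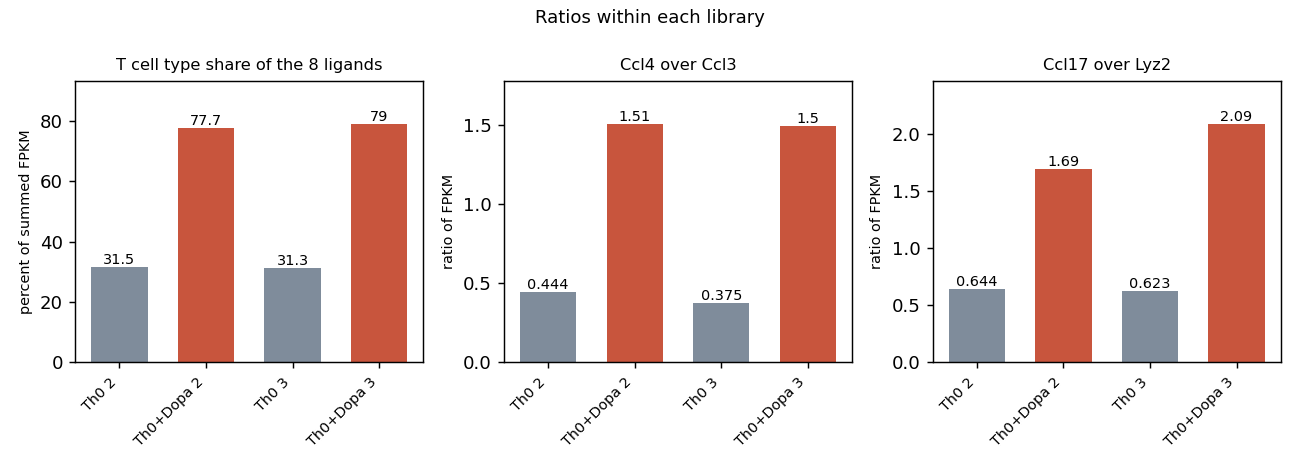
Ratios formed within each library (horizontal axes: the 4 libraries, grey Th0, red Th0+Dopa; vertical axes from 0), namely the T cell type share of the summed FPKM of the 8 ligands in percent, Ccl4 over Ccl3, and Ccl17 over the macrophage lysozyme gene Lyz2. Each ratio was higher in both dopamine libraries, with shares of 31.5% and 31.3% against 77.7% and 79.0%.

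The chromosome 11 stretch held neighbours with opposite differences. Ccl6 and Ccl9, CC chemokines known from myeloid cells, start 56.3 and 70.7 kb from Ccl3, between it and Ccl5. Ccl6 was 80.5 and 115 FPKM in Th0 2 and Th0 3 and 12.7 and 14.4 in Th0+Dopa 2 and Th0+Dopa 3, a fall with a difference of -2.75 ± 0.14 (limma adjusted p = 0.000693). Ccl9 was 38.9 and 60.7 FPKM against 15.8 and 14.5, with -1.62 ± 0.20 (adjusted p = 0.00904, or 0.0716 without limma's trend). Beyond Ccl4, the gene Wfdc17 fell as well (-2.32 ± 0.23, adjusted p = 0.00524). Ccl4 therefore rose between genes that fell, with Ccl3 next to it not past the threshold. On chromosome 8, Cx3cl1, the gene between Ccl22 and Ccl17, was at most 0.0612 FPKM. Within 100 kb of any member lay 18 other protein-coding genes that encode no chemokine, of which 9 were tested, with a median difference of 0.05. Of these, Wfdc17 fell and Polr2c, an RNA polymerase II subunit gene, rose (0.51 ± 0.11, adjusted p = 0.0437).

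**Figure D3:**
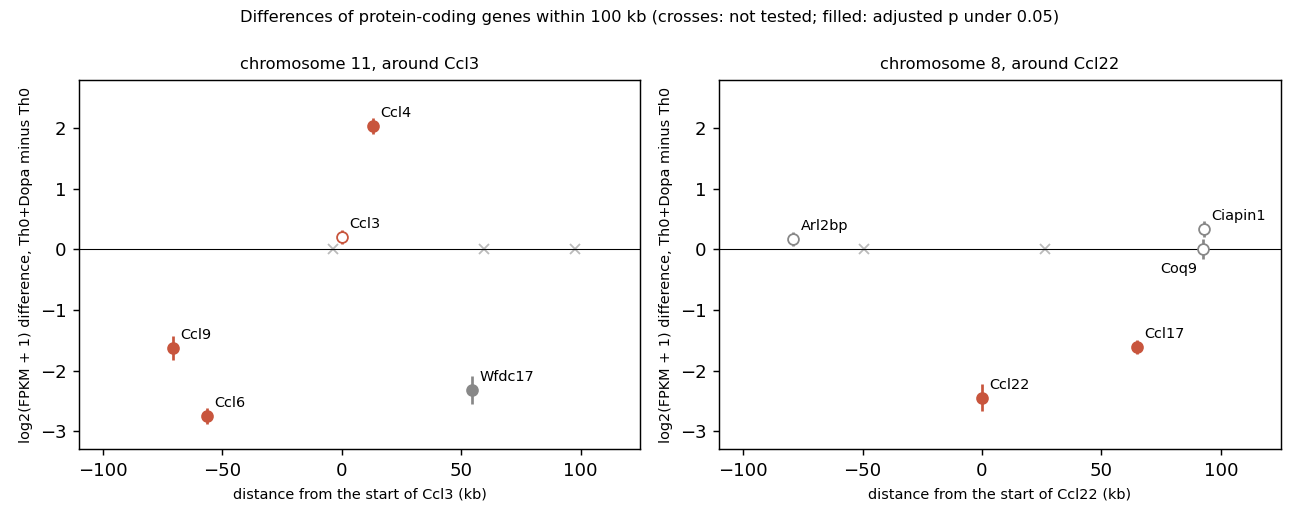
Difference on the log2(FPKM + 1) scale, Th0+Dopa minus Th0 (vertical axis, with SE), of protein-coding genes by distance in kb from the start of Ccl3 (left) and of Ccl22 (right). Filled points had an adjusted p under 0.05, crosses at 0 mark genes that were not tested, and red marks chemokine genes. Ccl4 at 2.03 lies 13.2 kb to the right of Ccl3, and Ccl6 at -2.75 and Ccl9 at -1.62 lie to its left.

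Among the other chemokine ligands, those called were all lower with dopamine. Of 33 other chemokine ligands in the tables, 10 were tested, 6 fell and 0 rose by limma (7 and 0 at an unadjusted p under 0.05), with a median difference of -1.72. Beside Ccl6 and Ccl9 these were Ccl2, which attracts monocytes (-1.81 ± 0.39, adjusted p = 0.0437), Cxcl16, the ligand of Cxcr6 (-1.89 ± 0.28), and the platelet chemokines Ppbp (-1.88 ± 0.21) and Pf4 (-1.94 ± 0.13). Ccl2 was 2.37 and 5.45 FPKM in Th0 and 0.449 and 0.222 with dopamine, and its adjusted p was 0.0702 without the filter, 0.0951 without the trend and 0.0677 without the block. Cxcl10 and Cxcl3 had -0.998 ± 0.29 and -1.03 ± 0.42 (adjusted p = 0.0901 and 0.181), which passed when only protein-coding genes were tested (0.0177 and 0.0431), as did Cxcl10 with small RNA left out (0.0338). Ccl20 (-0.91 ± 0.39) and Ccl25 (-0.16 ± 0.40) did not pass. Without Th0 3 the difference was -0.42 for Cxcl3 and -0.25 for Ccl20, and without Th0 2 it was -1.66 and -1.60. The other 23 lay under the filter at no more than 1.39 FPKM in any library, and 9 of them were listed at 0 in all 4. Ccl4 was thus the only called riser among the 17 tested ligand genes of the family. In the 4 fits that left out a library, none of these genes passed.

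Some receptors of the members were measured in the same libraries. Ccr4, which binds Ccl17 and Ccl22, was 65.9 and 56.6 FPKM in Th0 2 and Th0 3 and 48.1 and 55.4 with dopamine (-0.24 ± 0.14, adjusted p = 0.323), and Ccr8, which binds Ccl1, was 44.1 and 27.6 against 39.0 and 29.7 (-0.03 ± 0.13, adjusted p = 0.898). Ccr8 had 0.28 without Th0 2 and 0.14 without Th0+Dopa 3. Ccr1, which binds Ccl3 and Ccl5, fell from 6.06 and 8.66 FPKM to 0.888 and 1.27 (-1.997 ± 0.24, adjusted p = 0.00866). Ccr3 and Xcr1 were under the filter, at no more than 0.186 and 0.315 FPKM. Of all 23 chemokine receptor genes, 10 were tested, 4 fell and 0 rose (4 and 1 at an unadjusted p under 0.05). The 1 was Cxcr3, at 2.10 and 1.83 FPKM in Th0 2 and Th0 3 against 6.40 and 4.11 with dopamine. Its difference was 1.05 ± 0.25 (limma adjusted p = 0.0541). The other 3 that fell were the monocyte receptor Ccr2 (-1.26 ± 0.26, adjusted p = 0.0389), the lymph node homing receptor Ccr7 (-0.70 ± 0.11, 0.0210) and Cxcr4 (-1.19 ± 0.21, 0.0246). Without the trend these 3 had adjusted p values of 0.0509, 0.111 and 0.0665, without the block Ccr7 had 0.0543 and Ccr2 did not pass, and without the filter Ccr2 and Cxcr4 had 0.0925 and 0.0563. With the GC content and length correction Ccr2 had -1.03 (adjusted p = 0.0582).

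Transcripts of the labelled cell type were present throughout. All 9 T cell markers were at least 7.29 FPKM in every library, their summed level was 1746 and 1769 FPKM in Th0 2 and Th0 3 and 1632 and 1561 with dopamine, and their median difference was -0.02. Of these, Cd3d rose (0.48 ± 0.10, adjusted p = 0.0398, but 0.223 under the common sum, 0.168 without the trend and 0.0602 without the filter) and Trac fell (-0.70 ± 0.10, adjusted p = 0.0148, or 0.105 without the trend). Without the block their adjusted p values were 0.0988 and 0.0677.

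Macrophage, granulocyte and eosinophil markers were lower in the libraries where the myeloid type ligands were lower. The 16 macrophage and dendritic cell markers summed to 153 and 186 FPKM in Th0 2 and Th0 3 and to 18.8 and 19.7 with dopamine. Most of these sums was Lyz2, which granulocytes also express, at 121 and 136 against 14.3 and 13.3 FPKM. No other marker of this list exceeded 8.73 FPKM in any library. Of the 8 tested, 7 fell, with a median difference of -1.93; Cd68 had -2.04 ± 0.24, Csf1r -1.93 ± 0.32 and Itgam -1.91 ± 0.28, and Adgre1, with -1.14 ± 0.36 (adjusted p = 0.108), did not pass, though it did among protein-coding genes only (0.0144) and with small RNA left out (0.032). The other 8 lay under the filter and were not tested. Of these, C1qa, C1qb, C1qc and Siglech were at most 0.645, 0.408, 0.844 and 0.482 FPKM in Th0, near the floor. They were listed at 0 in both dopamine libraries, with C1qc at 0 in Th0 2 as well. Marco was 1.10 and 1.89 FPKM in Th0 2 and Th0 3 against 0 and 0.0804 with dopamine. Flt3 was 0.538 and 1.78 against 0.127 and 0.249. Zbtb46 was 0.943 and 1.41 against 0.549 and 0.308, and Fcgr1 0.238 and 0.396 against 0.183 and 0.242. Of 6 tested markers of alternatively activated macrophages, a state in which Ccl17, Ccl22 and Ccl24 are known, 4 fell, or 2 without the trend or without the block. The median difference of the 6 was -1.56. The 8 listed genes of this state summed to 81.7 and 143 FPKM against 19.8 and 19.2. Chil3, the highest of them by mean and the lowest by difference, was 51.5 and 80.5 FPKM against 6.96 and 8.92 (-2.88 ± 0.14, limma adjusted p = 0.000693). Retnla lay under the filter and was seen only in Th0+Dopa 3, at 0.327 FPKM. Mature dendritic cell markers gave 4 lower and 1 higher of 7 tested, with a median difference of -1.03. Their sums of 78.3 and 82.8 against 73.9 and 68.4 FPKM were mostly Relb and Socs2. Relb was 25.8 and 22.5 FPKM against 40.5 and 34.9, and Socs2 was 19.3 and 22.1 against 19.9 and 19.6. The lower calls numbered 0 without the filter, 1 without the trend and 2 without the block, and the higher call, Relb (0.62 ± 0.12, adjusted p = 0.0328), was lost without the trend, without the block and with a common sum. All 8 tested granulocyte, mast cell and basophil markers fell, with Mcpt8 at -3.32 ± 0.15 and sums of 461 and 619 against 50.6 and 48.7 FPKM. Of 5 tested eosinophil markers 3 fell (5 with a common sum or among protein-coding genes only), with a median difference of -1.75. Prg2 had the lowest difference of this list, -2.98 ± 0.23, and the list summed to 62.7 and 119 against 9.31 and 9.97 FPKM. The part of these cells in the falls of Ccl17, Ccl22 and Ccl24 was not tested.

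Ratios to single markers differed between the ligands. Against Lyz2, a lysozyme gene of macrophages and granulocytes singled out after its values were seen (-3.13 ± 0.12, adjusted p = 0.000409), Ccl17 stood at a ratio of 0.644 and 0.623 in Th0 2 and Th0 3 and 1.69 and 2.09 in Th0+Dopa 2 and Th0+Dopa 3. Ccl24 over Lyz2 was 0.211 and 0.277 against 0.375 and 0.485. Ccl22 over Lyz2 was 0.381 and 0.365 against 0.384 and 0.857, so in the first pair Ccl22 and Lyz2 fell in step and in the second they did not. Over Cd68, Ccl17 was 14.6 and 9.73 against 43.9 and 20.4, Ccl24 was 4.79 and 4.32 against 9.72 and 4.74, and Ccl22 was 8.63 and 5.71 against 9.93 and 8.38. Over Spi1, a transcription factor gene of myeloid cells, Ccl22 was 8.27 and 7.44 in Th0 2 and Th0 3 against 7.44 and 12.1 with dopamine, so its ratio was lower in the first pair and higher in the second. Ccl17 over Spi1 was 14.0 and 12.7 against 32.9 and 29.5, and Ccl24 over Spi1 4.59 and 5.64 against 7.28 and 6.86. With dopamine, Cd68 was only 0.551 and 1.36 FPKM and Spi1 0.736 and 0.944, so ratios over them rest on low values. These ratios carry no test.

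**Figure D4:**
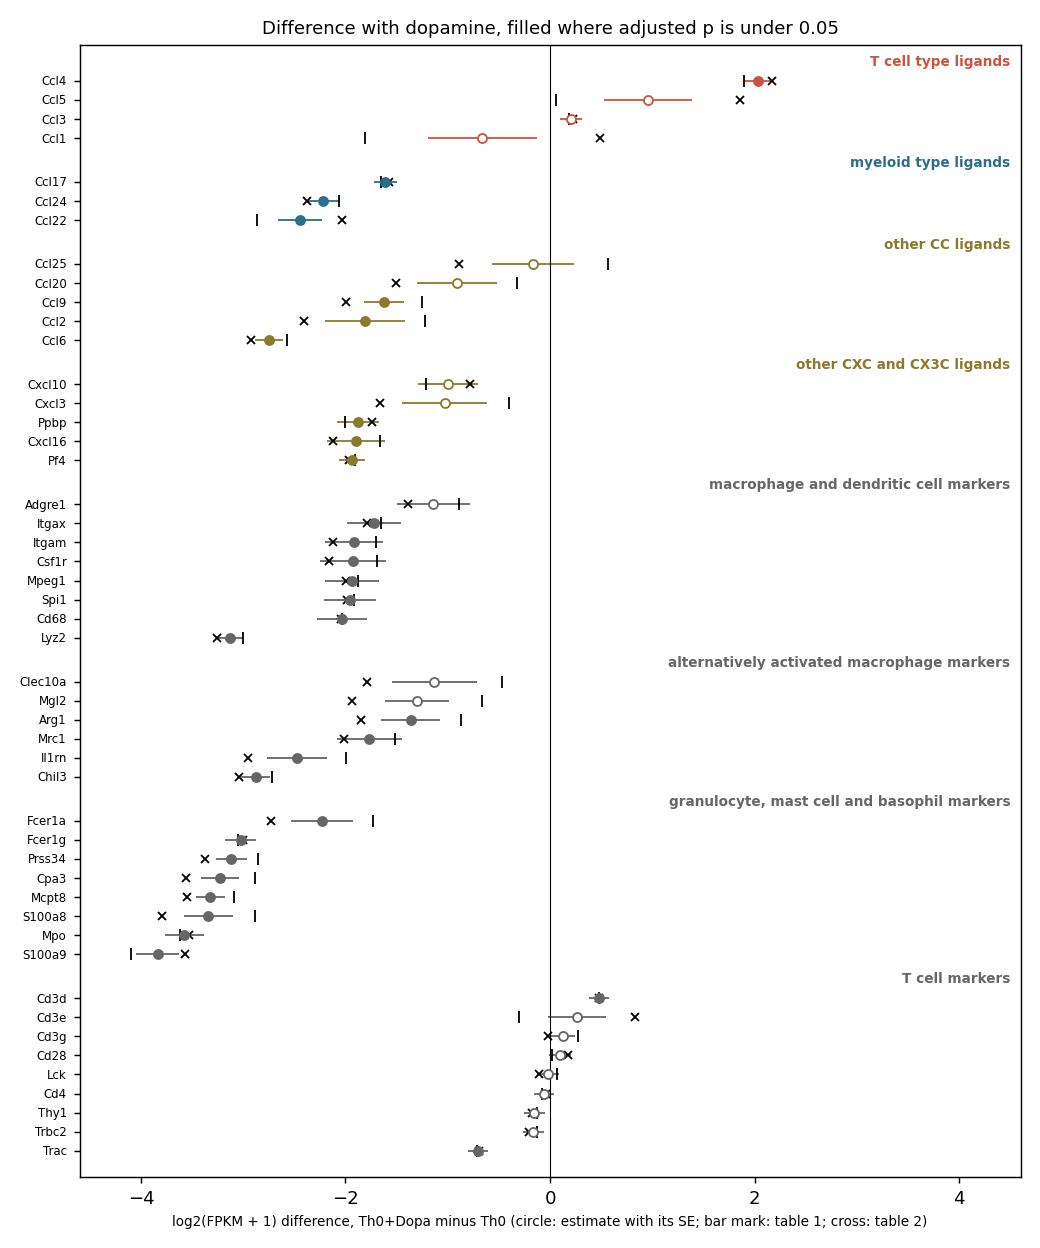
Difference on the log2(FPKM + 1) scale, Th0+Dopa minus Th0 (horizontal axis; circles with SE, filled where the adjusted p was under 0.05), of the tested members, other chemokine ligands and marker genes, 1 gene per line, with the difference in each table as a vertical mark (table of the libraries numbered 2) and a cross (those numbered 3). Ccl4 lies at 2.03, the myeloid type ligands between -2.45 and -1.61, and most markers of myeloid cells in the same range or lower on this scale, which understates falls of low genes. With a pseudocount of 0.1, Cd68, Csf1r and Itgam had -2.83, -3.50 and -2.84, and Ccl17, Ccl22 and Ccl24 had -1.65, -2.58 and -2.38.

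In sum, markers of NK, CD8 T and B cells were low beside the T cell markers, but single genes were not all lower. The B cell marker Ighm was 12.5 and 16.0 FPKM in Th0 2 and Th0 3 and 18.1 and 19.9 with dopamine. Nkg7, of the NK and CD8 T cell list, was 9.05 and 11.8 against 9.20 and 13.7. The T cell marker Cd3e was 9.20 and 8.67 against 7.29 and 16.2. Of 9 NK and CD8 T cell markers 4 were tested and 0 were called (1 at an unadjusted p under 0.05), Ncr1 was listed at 0 in every library, and the list summed to 16.4 and 21.01 FPKM in Th0 2 and Th0 3 against 24.7 and 28.7 with dopamine. The median difference of the 4 tested was 0.53. For 3 of the 4 the groups did not overlap, all higher with dopamine, which held for 31.4% of all tested genes. Gzma had the largest difference (1.09 ± 0.31, limma adjusted p = 0.0849). It was 1.77 and 3.67 FPKM in Th0 2 and Th0 3 against 7.56 and 5.86 with dopamine. When only protein-coding genes were tested, 1 of the 4 was called higher. The 6 B cell markers summed to 14.9 and 21.2 FPKM against 21.8 and 24.9, with 0 of 2 tested called by limma (1 at an unadjusted p under 0.05). Their part in the difference of Ccl4 was not tested.

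Similarity was measured by the distance between the 2 within-table log2(FPKM + 1) differences of a gene and those of a member. Genes with the most similar differences on this scale were sought over 10152 other tested protein-coding genes and 4 libraries. For Ccl17 these were Cybb, a subunit of the phagocyte oxidase (-1.64 ± 0.31, distance 0.0484; adjusted p = 0.0316, or 0.0508 without the filter), Apol7c (-1.57 ± 0.18, 0.0956) and March1, a ubiquitin ligase of antigen-presenting cells (-1.68 ± 0.31, 0.0989; adjusted p = 0.0297, or 0.0635 without the block). This scale understates the change of low genes such as Cybb and March1. With a pseudocount of 0.1, Cybb had -2.90 and March1 -3.23, against -1.65 for Ccl17, so their likeness to Ccl17 depends on the pseudocount. For Ccl3, the most abundant T cell type ligand by mean, the nearest genes were D5Ertd579e, Poglut1 and Kdm4a, all with 0.21 and none past the threshold. Ccl4 was added after its values were seen, and its nearest genes were the cytotoxic protease Gzmb (1.90 ± 0.11, distance 0.208), the cholesterol transporter Abcg1 (1.94 ± 0.16, 0.237) and Endog, a mitochondrial nuclease (1.83 ± 0.19, 0.309; 1.07 with adjusted p = 0.04 under the GC content and length correction). Gzmb was 47.5 and 46.4 FPKM in Th0 2 and Th0 3 and 170 and 186 with dopamine.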

How the data were processed

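Paired-end libraries of total RNA, depleted of ribosomal and globin RNA, were sequenced on 2 lanes each, per the labels' protocols. The authors deposited FPKM in 2 separately made tables, 1 for the libraries numbered 2 and 1 for those numbered 3. The submitters' processing notes name Trimmomatic 0.35, STAR 2.4.2, Cufflinks 2.2.1 and mm10. The library kit was stranded; the sources used here do not state the annotation, the options for normalization or whether counting used strand. GENCODE M21 (GRCm38) named 36423 of 38282 IDs. The test was limma 3.58.1 under R 4.3.3 (lmFit and eBayes with trend, two-sided), run on log2(FPKM + 1) of the 11423 genes whose FPKM averaged 1 or more, with a block for the table and p-values Benjamini-Hochberg adjusted over all of them, with a call at adjusted p under 0.05. This left 1 residual degree of freedom, to which the prior added 4.7. Estimates are the mean of the within-table differences, and levels set side by side across tables were normalized separately. A fold change on this log scale understates the change of low genes. Read counts were not used here. Low values of single-transcript genes fell near whole fragments (88.7% to 90.2% within 0.15, against 30% by chance), which gave the fragment estimates. Scaling by the authors would move them. The members, lists and tests were chosen with earlier results of these data known. Named genes are the members, called ligands and receptors, receptors of members (apart from an item not reported here), up to 4 markers of a list and the 3 genes nearest to the most abundant member of each class. Wfdc17, Polr2c, Relb, Socs2, Lyz2, Spi1, Chil3 (as the highest of its list), Retnla, Mcpt8, Prg2 and Trac were chosen after their values were seen. So were ligands not called, Cxcr3, Ncr1, Gzma, Ighm, the macrophage and dendritic cell markers under the filter, the genes nearest to Ccl4 and the motifs. The alternatives changed the pseudocount, the filter, the scaling or limma's settings, dropped the block, applied a GC content and length correction, or left out each library in turn.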

Additional observations from a re-analysis of the deposited data

How the results depend on the processing

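Ccl4, Ccl17, Ccl22 and Ccl24 kept their direction and their call in all 13 alternatives that used all 4 libraries, with differences of 1.79 to 2.08, -1.86 to -1.61, -2.68 to -2.45 and -2.45 to -2.22, and limma adjusted p of at most 0.0367, 0.0396, 0.0470 and 0.0367. In the 4 fits that left out a library, which had no block, were scaled by median of ratios and assumed that a lone library varies like the others, all kept their direction and none its call. The T cell type ligands called higher then numbered 0 to 0 and the myeloid type ligands called lower 0 to 0, though at an unadjusted p under 0.05 all 3 of the latter passed in each. Genes called higher numbered 0 to 13 and lower 0 to 9 in these fits, which test with fewer libraries. Over all genes, 442 were called higher and 298 lower without the filter, 1077 and 907 among protein-coding genes only, 376 and 1064 with a common sum, 106 and 150 without the trend, and 256 and 240 without the replicate block (199 and 244 with the median of ratios over all 4, where 44.9% of calls were higher). With small RNA left out, 1236 were lower. The cause of these differences was not tested. The replicate block is the table, since each number has a table of its own. The labels do not pair the libraries. Deviations of same-numbered libraries from their group means correlated across genes at 0.0869 by Pearson and 0.176 by Spearman correlation. Without the block, no member changed its side of the threshold. With a common sum, signs turned for Ccl3 (-0.045), D5Ertd579e (-0.024), Poglut1 (-0.031) and Kdm4a (-0.038). Over the fits that left out a library, differences ranged from -1.45 to 0.081 for Ccl1, -0.0047 to 0.36 for Ccl3, -0.76 to 0.40 for Ccl25 and -0.40 to 0.28 for Ccr8, with the sign turned without Th0+Dopa 2 for Ccl1, without Th0+Dopa 3 for Ccl3 and Ccl25, and without Th0 2 or Th0+Dopa 3 for Ccr8. None of these was called. With a pseudocount of 0.1, called genes at low levels moved by over 1.5 times, with Ccl2 at -3.14, Csf1r at -3.50, Cybb at -2.90 and March1 at -3.23. Depth limits Xcl1, Ccl1 and Ccl5 most, whose values rest on up to about 30 fragments.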
